A study of Mus musculus with 34 samples.

Results

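The collagens described here are the protein-coding mouse genes of the deposited expression table whose symbol has the form of a collagen chain (Col, a type number, a, a chain number), with the chains of types IV and VI left out. There are 31 of them among 23331 genes. Bulk RNA-seq was made from 34 samples in 17 groups of 2. Wild type kidneys came from E12.5 and E15.5 embryos and from mice on postnatal days P0, P9 and P45. Explants were E12.5 kidneys grown in a dish and carried Hoxb7-venus, a fluorescent reporter under the promoter of Hoxb7, a gene active in the ureteric bud and its branches. They were collected at day (D) 7 in 10% fetal bovine serum, at D17 in the medium v0, in v1 on 4 days (D3, D7, D13, D19) and in v2 at D19. Assembloids (mKPA, made by putting together kidney progenitors that had been expanded) had the same Hoxb7-venus label and were kept in v2 and collected at D3, D7, D13 and in a pair of D19 sets named r1 and r2. The media are called stage-based, so their composition may change with the day. Kidneys and cultures differ in genotype as well as in culture, and these cannot be told apart. Whether replicates are different animals or dishes is not labelled, so p-values measure only the spread between these samples.

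Collagens are trimers of chains that wind into a triple helix. Prolyl and lysyl hydroxylases and the chaperone Serpinh1 act on the chains inside the cell; proteinases then trim the ends outside it, and lysyl oxidases crosslink the molecules. Fibrillar collagens (types I, II, III, V and XI) form the ropes of connective tissue, FACIT collagens sit on the surface of those fibrils, and other members form networks, line basement membranes or span the cell membrane. In the kidney, interstitial fibroblasts and pericytes are the known main source of types I and III. Type II with types IX and XI is known as the set of cartilage.

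RefSeq promoter sequences (build GRCm38.p6) were matched for 23 of the 31 members. The 250 bases before the gene start are shown for Col1a2, Col3a1 and Col5a1, 3 fibrillar chains that were higher in D19 than in D3 assembloids, and for Col8a1, the member furthest apart between serum and v1 explants. Each is printed 5′ to 3′ on the gene's strand, and capitals mark matches on either strand. Searched were the CCAAT box, which is named by its letters, the TATA box (letters TATAAA), the GC box (letters GGGCGG) and the core letters of SOX sites (AACAAT, here called SOX core). The windows are chr6:4505368-4505617 (plus strand) for Col1a2, chr1:45311288-45311537 (plus) for Col3a1, chr2:27886175-27886424 (plus) for Col5a1 and chr16:57754738-57754987 (minus) for Col8a1.
Col1a2: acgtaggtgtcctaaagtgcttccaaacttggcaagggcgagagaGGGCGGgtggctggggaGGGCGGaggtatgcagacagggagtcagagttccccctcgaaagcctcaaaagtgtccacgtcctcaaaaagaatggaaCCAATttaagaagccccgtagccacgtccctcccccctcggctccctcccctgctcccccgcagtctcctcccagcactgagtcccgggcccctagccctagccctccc
Col3a1: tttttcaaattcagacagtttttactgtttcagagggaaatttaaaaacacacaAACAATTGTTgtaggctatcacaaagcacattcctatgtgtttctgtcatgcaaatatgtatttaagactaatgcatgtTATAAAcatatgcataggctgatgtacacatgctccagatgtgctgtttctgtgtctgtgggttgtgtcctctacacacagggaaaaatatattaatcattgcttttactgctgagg
Col5a1: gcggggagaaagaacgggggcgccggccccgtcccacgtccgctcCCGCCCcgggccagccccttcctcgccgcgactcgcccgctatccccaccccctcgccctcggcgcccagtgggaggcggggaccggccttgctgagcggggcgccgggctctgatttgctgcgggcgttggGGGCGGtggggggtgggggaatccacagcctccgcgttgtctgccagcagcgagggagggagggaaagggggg
Col8a1: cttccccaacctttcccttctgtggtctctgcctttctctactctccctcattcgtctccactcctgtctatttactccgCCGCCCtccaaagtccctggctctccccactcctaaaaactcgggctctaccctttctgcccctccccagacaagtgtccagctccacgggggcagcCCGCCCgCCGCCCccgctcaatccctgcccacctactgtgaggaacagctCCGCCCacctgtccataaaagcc
The Col1a2 window held a forward CCAAT box that began 109 bases before the start, and GC boxes that began 205 and 188 bases before it. In Col3a1 a TATA box began 117 bases before the start, and the capitals further upstream are SOX cores on both strands that overlap. Col5a1 and Col8a1 held GC boxes only. Over the 250 bases before the start, a GC box lay in 14 of the 23 matched collagens and in 32.7% of 32851 promoters, a CCAAT box in 9 and in 33.8%, a TATA box in 5 and in 12.4%, and a SOX core in 1 and in 9.42%. A match describes the letters and is not a binding site.

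The deposited values are a TMM-normalized signal, not counts and not scaled by gene length, so levels are compared within a gene unless a value per kilobase is given. Column totals were 879095 to 1503681. In units of each column's lowest value these totals came to 15243962 or more in 33 libraries and to 7772347 in D19 v2 explant replicate 2, which is therefore the least precise. Log2 values of the samples of a group correlated at 0.9832 to 0.9962, lowest in the P45 kidneys. All 11 kidney epithelium markers listed (Pax2, Pax8, Epcam, Lrp2, Nphs1 and others) were detected in 15 of the 17 groups and 10 of them in E12.5 kidneys and D3 assembloids, and their summed signal ran from 639 at E12.5 to 12084 at P45. The 8 endothelium markers (Pecam1, Cdh5, Kdr and others) summed to 727 to 933 in kidneys, 439 to 529 in D3 v1 explants, 88.5 to 253 in the later explants and 25.8 to 83.8 in assembloids. In whole-tissue RNA, fewer cells of a type and less RNA per cell cannot be told apart.

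Log2 differences are from limma on log2(signal + 0.962) and are written with their standard error after the gene name. Rose, fell, and, of groups compared, higher and lower are used only of genes with a Benjamini-Hochberg adjusted p under 0.05 over all 19264 genes tested and a change of at least 1 on the log2 scale. Genes said not to be called or not to pass the test missed at least 1 of these thresholds and may still differ. Of the 31 collagens 30 were tested. Col10a1, the collagen of hypertrophic cartilage, did not pass the filter on low values, with signals of 0.0361 to 1.34. Its gene overlaps Nt5dc1 on the other strand, and since the strand setting of the counting is not given, reads of such pairs cannot be told apart. The same holds for Col18a1 with Slc19a1, Col9a3 with Tcfl5 and Col5a1 with 2810430I11Rik, and genes on the same strand overlap Col1a2, Col5a2, Col20a1, Col25a1 and Col26a1.

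The 31 collagens together took 0.645 and 0.674% of the column total at E12.5 and 0.139 and 0.125% at P45. Explants in serum reached 0.992 and 0.869%, D3 assembloids 0.249 and 0.276%, and D19 assembloids 0.916 to 1.03%. Col1a1, Col1a2 and Col3a1 made up between 42.9% (P45) and 78.5% (D19 assembloids) of that sum. Per kilobase of the longest coding transcript, the E12.5 kidney was led by Col1a1 (299.1), Col1a2 (236) and Col3a1 (229.8), followed by Col26a1 (79.4). At P45 Col3a1 (73.8) and Col18a1 (69.8) led, and Col27a1 (33.2 per kilobase) stood above Col1a1 (27.5).

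**Figure D1:**
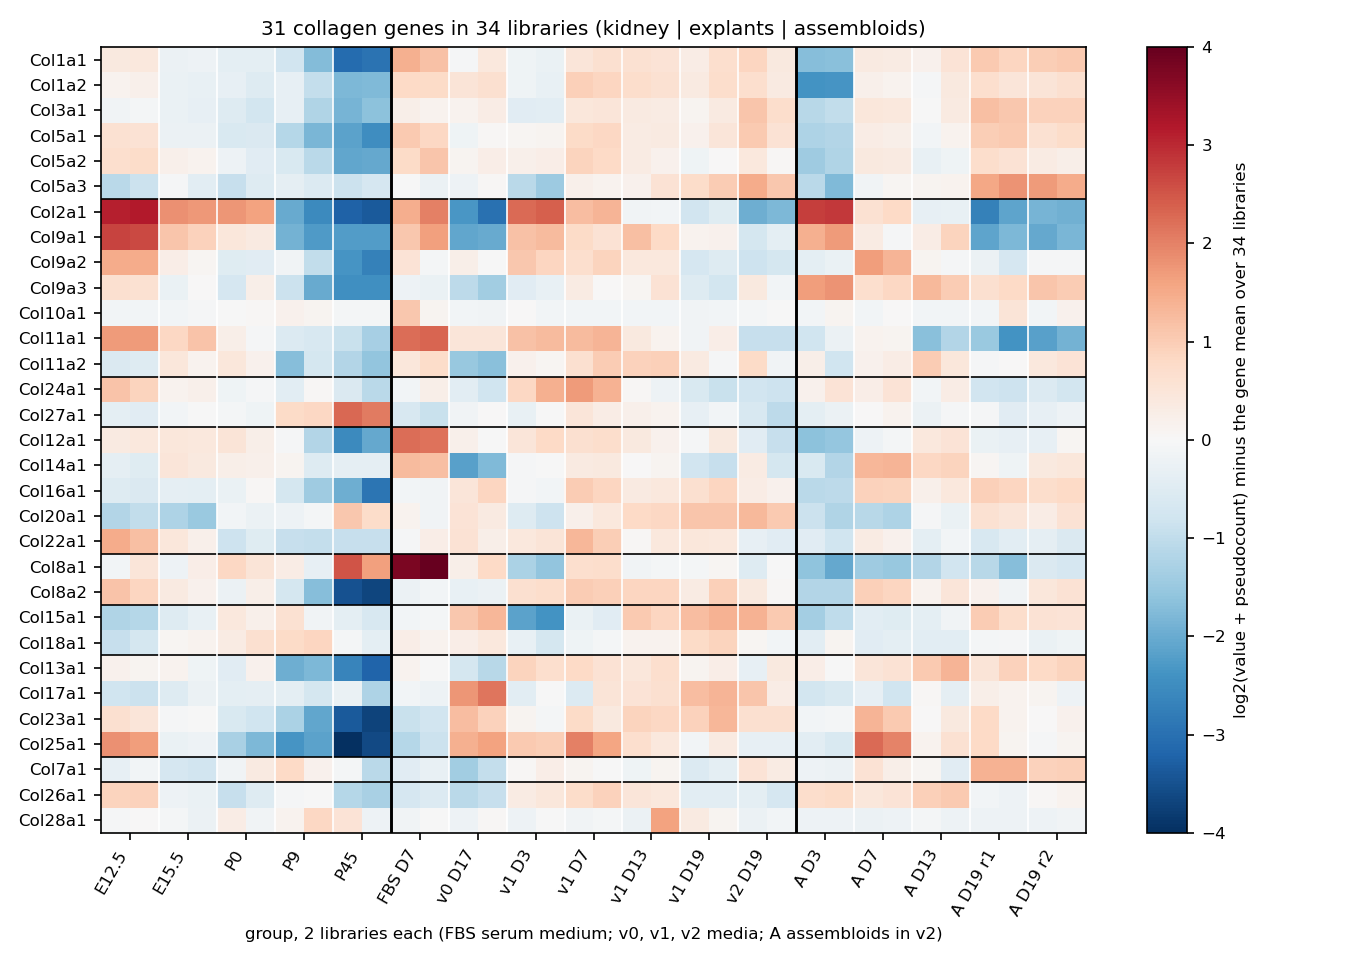
Log2 signal of each of the 31 collagens (rows, by class) in each of the 34 libraries (columns), relative to the gene's mean over all libraries; the colour scale is cut at its ends, so the most extreme libraries share its last colour. Col1a1 and Col5a2 are lowest in P45 kidneys and Col1a2 in D3 assembloids, and Col2a1 is lowest in P45 kidneys.

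Col1a1, Col1a2 and Col3a1 had the 3 highest member signals in 14 of the 17 groups; in P9 and P45 kidneys and D3 assembloids Col18a1 was among the 3. Col1a1 (ENSMUSG00000001506.11, chr11:94827050-94843868, plus strand) encodes the chain present as a pair in the common type I trimer. All gene coordinates are those of the deposited table, on mm39, and all genes named are protein-coding. Its signal in kidneys (replicates 1 and 2 in each group) was 1751 and 1796 at E12.5, 1130.3 and 1171 at E15.5, 1019.7 and 1013 at P0, 794 and 399 at P9, and 156 and 171 at P45. Explants had 3573 and 3025 in serum at D7, 1304 and 1803 in v0 at D17, 1179 and 1113 in v1 at D3, 1863 and 2092 in v1 at D7, 2061 and 1961 in v1 at D13, 1652 and 2115 in v1 at D19, and 2438 and 1758 in v2 at D19. Assembloids, with the r1 and r2 sets giving 4 values at D19, had 412 and 418 at D3, 1726 and 1666 at D7, 1512 and 1952 at D13, and 2791, 2422, 2637 and 2765 at D19. The serum explants and the P45 kidneys marked the ends of the range, and every D19 assembloid value lay above every kidney value. Col1a2 (ENSMUSG00000029661.17, chr6:4504814-4541544, plus strand), the partner chain, had 1232 and 1287 at E12.5, 921 and 909 at E15.5, 883 and 780.4 at P0, 876 and 576 at P9, and 319.7 and 323 at P45 in kidneys. Its signal in explants was 1944 and 1897 in serum at D7, 1575 and 1739 in v0 at D17, 978 and 910.02 in v1 at D3, 2129 and 2021 in v1 at D7, 1804 and 1706 in v1 at D13, 1427 and 1793 in v1 at D19, and 1780.01 and 1409.7 in v2 at D19. In assembloids it was 212 and 217 at D3, 1282 and 1227 at D7, 1072 and 1452 at D13, and 1759, 1559, 1572 and 1741 at D19, with the D3 values the lowest of the 34 libraries. Per kilobase the ratio of Col1a1 to Col1a2 was 1.28 and 1.26 at E12.5, 0.818 and 0.625 at P9 and 0.44 and 0.476 at P45. It was 1.76 and 1.74 in D3 assembloids and 1.66 and 1.44 in serum explants, and 0.789 and 0.934 in D7 v1 explants.

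Col3a1 (ENSMUSG00000026043.19, chr1:45350698-45388866, plus strand) encodes the single chain of type III collagen, which copolymerises with type I. Kidneys had 1254 and 1304 at E12.5, 1132 and 1084 at E15.5, 972 and 821 at P0, 1105 and 598 at P9, and 377 and 444 at P45. Explants had a signal of 1604 and 1503 in serum at D7, 1527 and 1681 in v0 at D17, 997 and 1021 in v1 at D3, 1868 and 1912 in v1 at D7, 1780.1 and 1737 in v1 at D13, 1485 and 1777 in v1 at D19, and 2969.6 and 2242 in v2 at D19. Assembloids stood at 631 and 699 at D3, 1886 and 1852 at D7, 1362 and 1769 at D13, and 3154, 2921, 2597 and 2629 at D19. Every D19 value in v2, of explants and assembloids alike, lay above every other library. Per kilobase Col3a1 was 2.57 and 2.77 times Col1a1 at P45, 0.763 and 0.773 times at E12.5 and 0.478 and 0.53 times in serum.

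Type V collagen seeds fibrils and sets their width. Col5a1 (ENSMUSG00000026837.17, chr2:27776437-27929526, plus strand) had 424 and 418 at E12.5, 233 and 235 at E15.5, 179 and 183 at P0, 125 and 77.1 at P9, and 61.5 and 49.2 at P45 in kidneys, in order of age. Signals in explants were 574 and 492 in serum at D7, 244 and 286 in v0 at D17, 295 and 297 in v1 at D3, 468 and 489 in v1 at D7, 351 and 357 in v1 at D13, 313 and 388 in v1 at D19, and 572 and 414 in v2 at D19. In assembloids they were 116 and 122 at D3, 342 and 328 at D7, 257 and 306 at D13, and 549, 575, 425 and 465 at D19. Kidney values of successive stages did not overlap, and each stage lay below the one before it. Col5a2 (ENSMUSG00000026042.17, chr1:45413481-45542442, minus strand) ran from 187 and 195 at E12.5 to 27.3 and 27.9 at P45, and from 42.97 and 50.4 at D3 to 192, 175, 149 and 139.8 at D19 in assembloids. Col5a3 (ENSMUSG00000004098.8, chr9:20681346-20726363, minus strand), the scarcest type V chain, had another order. In kidneys it stood at 1.98 and 2.51 at E12.5, 5.13 and 3.71 at E15.5, 2.32 and 3.39 at P0, 3.87 and 3.28 at P9, and 2.45 and 2.93 at P45. Explants gave 5.21 and 4.35 in serum at D7, 4.48 and 5.46 in v0 at D17, 1.99 and 1.33 in v1 at D3, 6.195 and 5.92 in v1 at D7, 6.05 and 8.31 in v1 at D13, 9.398 and 11.6 in v1 at D19, and 16.5 and 12.1 in v2 at D19. Assembloids gave 1.998 and 0.862 at D3, 4.68 and 5.66 at D7, 5.83 and 5.904 at D13, and 17.3, 20.8, 19.5 and 16.5 at D19, and all D19 values in v2 were above all kidney values.

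**Figure D2:**
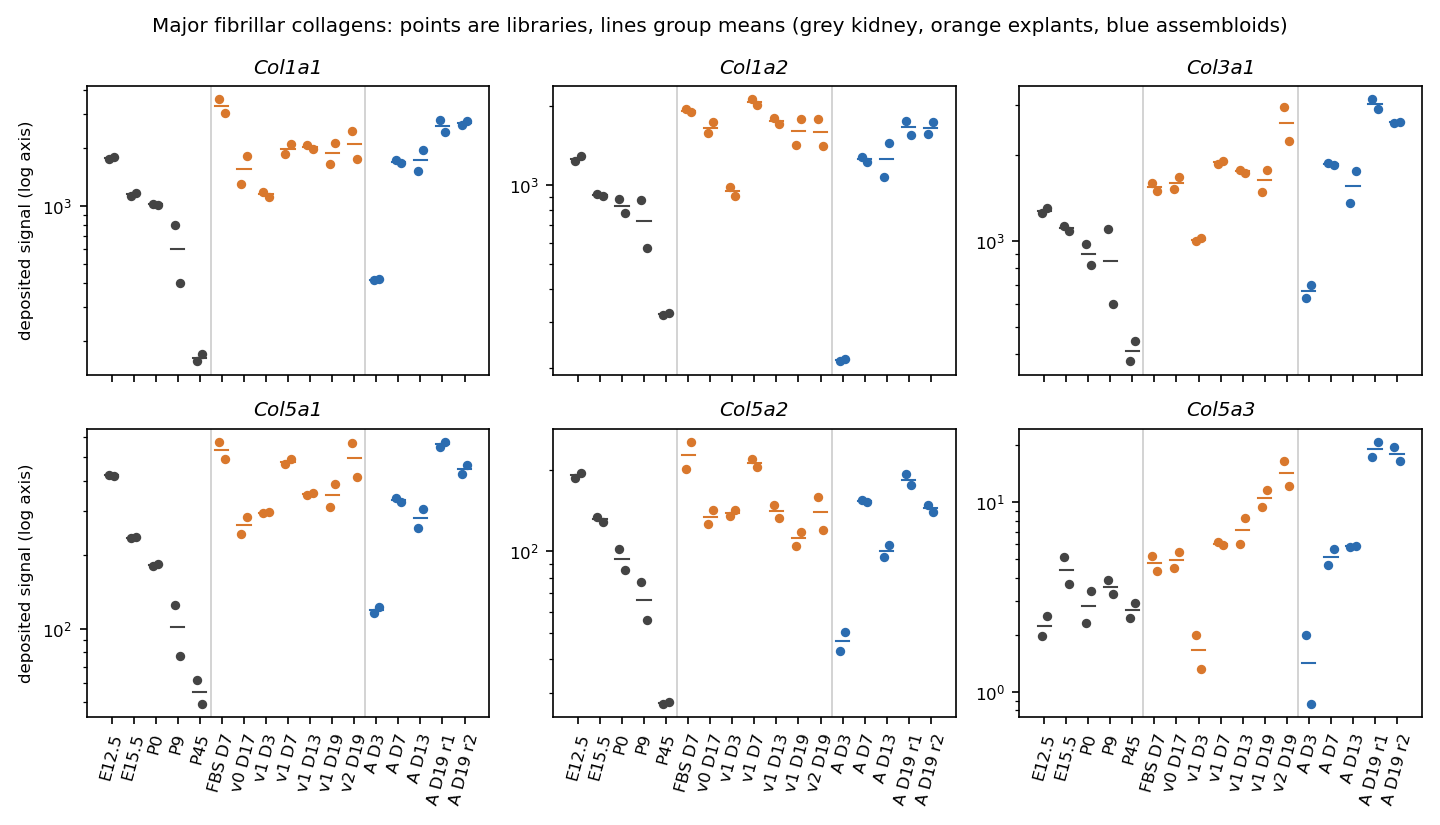
Deposited signal (log axis) of the 6 major fibrillar collagen genes in each library by group; points are libraries, horizontal lines group means of 2, grey kidneys, orange explants, blue assembloids (A). Col1a1 spans 156 (P45) to 3573 (serum explant), and the D3 assembloids lie below the D19 assembloids in all 6 panels.

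Among the cartilage collagens, Col2a1 (ENSMUSG00000022483.18, chr15:97873483-97902576, minus strand) encodes the type II chain. Its kidney signal was 127 and 133 at E12.5, 52.5 and 48.9 at E15.5, 50.3 and 44.8 at P0, 2.72 and 1.61 at P9, and 0.63 and 0.489 at P45. Explants had 40.1 and 59.4 in serum at D7, 2.03 and 0.93 in v0 at D17, 71.6 and 77.6 in v1 at D3, 34.2 and 37.8 in v1 at D7, 12.6 and 13.1 in v1 at D13, 7.88 and 9.78 in v1 at D19, and 2.87 and 3.33 in v2 at D19. Assembloids had 99.7 and 106 at D3, 21.8 and 24.8 at D7, 11.01 and 11.3 at D13, and 1.32, 2.47, 3.13 and 3.03 at D19. The highest values were those of E12.5 kidneys and D3 assembloids, and within each culture series later days had lower values with no overlap between days. Col9a1 (ENSMUSG00000026147.17, chr1:24216691-24291765, plus strand), a type IX chain that decorates type II fibrils, had 30.8 and 29.4 at E12.5, 9.59 and 8.32 at E15.5, 5.71 and 5.25 at P0, 0.34 and 0.0537 at P9, and 0.07 and 0.0698 at P45 in kidneys. Explants gave 9.23 and 14.2 in serum at D7, 0.179 and 0.243 in v0 at D17, 10.02 and 10.6 in v1 at D3, 7.28 and 6.34 in v1 at D7, 10.3 and 7.501 in v1 at D13, 4.34 and 4.55 in v1 at D19, and 2.03 and 2.73 in v2 at D19. Assembloids gave 11.9 and 14.9 at D3, 5.12 and 3.76 at D7, 4.97 and 7.97 at D13, and 0.173, 0.43, 0.224 and 0.393 at D19. At D19 the assembloid values were below 0.5, while the other type IX chains were not: Col9a2 had 4.84, 3.28, 5.59 and 5.56 at D19 and Col9a3 had 7.78, 8.76, 11.1 and 10.4 at D19 there. Per kilobase the ratio of Col9a3 to Col9a1 was 0.317 and 0.324 at E12.5, 1.76 and 1.55 in D3 assembloids and 56.6, 25.6, 62.6 and 33.3 in D19 assembloids. The D19 ratios divide by Col9a1 values near the lowest values of those columns (0.0537 to 0.0576), so their size is imprecise.

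Col11a1 (ENSMUSG00000027966.21, chr3:113824189-114014367, plus strand), a chain of the type XI collagen that nucleates cartilage fibrils, stood at 44.7 and 44.9 at E12.5, 24.02 and 30.2 at E15.5, 15.53 and 12.7 at P0, 8.63 and 8.05 at P9, and 6.58 and 4.68 at P45 in kidneys. Explants had 64.3 and 70.1 in serum at D7, 18.6 and 18.6 in v0 at D17, 30.8 and 32.9 in v1 at D3, 33.1 and 35.3 in v1 at D7, 17.3 and 14.4 in v1 at D13, 11.8 and 15.8 in v1 at D19, and 6.41 and 6.42 in v2 at D19. Assembloids had 7.04 and 11.05 at D3, 14.4 and 14.03 at D7, 3.47 and 5.196 at D13, and 4.03, 1.72, 2.13 and 2.81 at D19. The serum explants were above all others. Col11a2, another type XI chain, had 13.7 to 17.9 in v1 explants at D7 and D13, 18.01 and 11.7 at D13 in assembloids, and 1.90 to 4.78 in P9 and P45 kidneys and v0 explants. Of the 6 cartilage cell markers in the table, 4 were near 0 in all 34 libraries: Acan reached 1.61, Matn1 1.49, Comp 1.01 and Matn3 0.98. Cnmd, which encodes chondromodulin of cartilage and other avascular tissue, had 0.643 and 0.557 at E12.5, 0.665 and 0.647 at E15.5, 0.472 and 0.601 at P0, 0.476 and 0.644 at P9, and 0.07 and 0.419 at P45 in kidneys. It was at 0.688 to 3.89 in explants. In assembloids Cnmd had 5.45 and 11.7 at D3, 4.28 and 3.91 at D7, 3.47 and 7.498 at D13, and 7.55, 9.24, 6.54 and 8.19 at D19, with its highest value in a D3 library, where Col2a1 was also high, and values of 6.54 to 9.24 at D19, where Col2a1 was low. Hapln1, the link protein of cartilage that other mesenchyme also makes, had 52.2 and 55.5 at E12.5, 25.2 and 26.1 at E15.5, 15.1 and 9.24 at P0, 4.01 and 6.34 at P9, and 0.7 and 1.75 at P45 in kidneys. In assembloids Hapln1 had 2.15 and 3.13 at D3, 42.5 and 38.4 at D7, 32.6 and 41.2 at D13, and 9.45, 6.77, 5.76 and 6.68 at D19, lowest at D3, where Col2a1 was highest. The part of such cells in the cartilage collagen values was not tested.

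**Figure D3:**
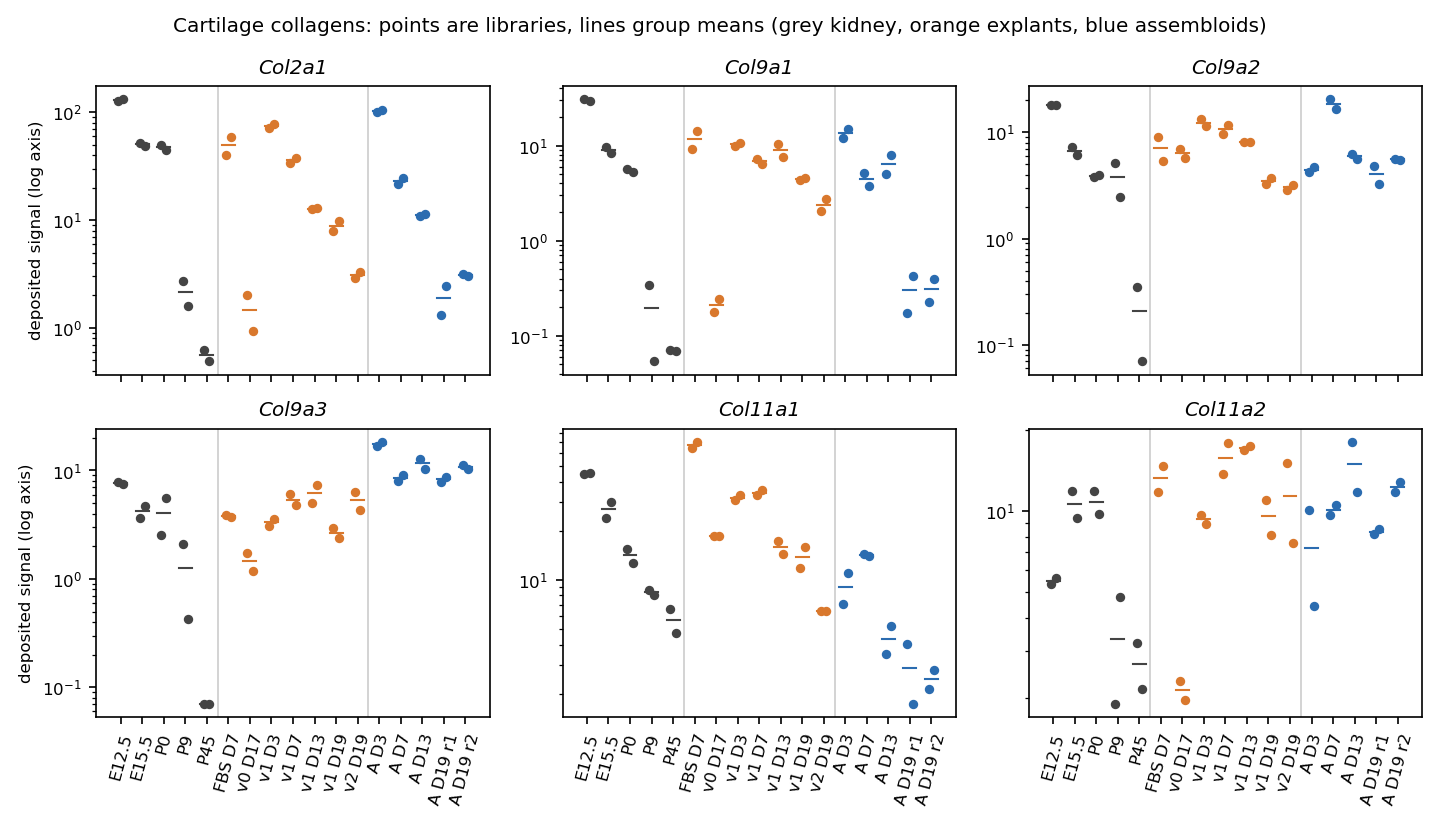
Deposited signal (log axis) of the 6 tested cartilage collagen genes in each library by group; points are libraries, horizontal lines group means, colours as for the fibrillar collagens. Col2a1 runs from 133 at E12.5 to 0.489 at P45, and Col9a1 is below 0.5 in P9 and P45 kidneys, v0 explants and D19 assembloids.

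Col15a1 (ENSMUSG00000028339.18, chr4:47208161-47313167, plus strand) and Col18a1 (ENSMUSG00000001435.16, chr10:76888012-77002382, minus strand) encode the multiplexins of the basement membrane zone, whose C-terminal pieces are known as restin and endostatin. Col15a1 had 74.3 and 78.3 at E12.5, 122 and 139 at E15.5, 231 and 197 at P0, 266 and 158 at P9, and 132 and 111 at P45 in kidneys. Its signal in explants was 161 and 163 in serum at D7, 369 and 435 in v0 at D17, 38.4 and 32.1 in v1 at D3, 144 and 127 in v1 at D7, 355 and 317 in v1 at D13, 407 and 454 in v1 at D19, and 457 and 357 in v2 at D19. Assembloids had 66.5 and 84.6 at D3, 129.96 and 124 at D7, 133 and 158 at D13, and 352, 281, 259 and 254 at D19. D3 v1 explants were the lowest of all groups. Col18a1 was more even, between 241 and 850.5 over all libraries. In kidneys it stood at 241 and 282 at E12.5, 477 and 507 at E15.5, 579 and 716 at P0, 784 and 834 at P9, and 436 and 344 at P45, highest at P9. In v1 explants its values ran 369 and 283 in v1 at D3, 404 and 434 in v1 at D7, 500.3 and 507 in v1 at D13, and 769.5 and 850.5 in v1 at D19.

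Col8a1 (ENSMUSG00000068196.6, chr16:57444621-57575100, minus strand) and Col8a2 encode short-chain collagens that form lattices, known from vessel walls and the cornea. Col8a1 had 2.89 and 4.9 at E12.5, 2.66 and 4.097 at E15.5, 6.52 and 4.97 at P0, 4.15 and 2.36 at P9, and 22.9 and 12.2 at P45 in kidneys. Explants had 55.8 and 70.02 in serum at D7, 4.0004 and 6.31 in v0 at D17, 0.798 and 0.442 in v1 at D3, 5.72 and 5.87 in v1 at D7, 2.86 and 3.01 in v1 at D13, 3.04 and 3.47 in v1 at D19, and 1.96 and 3.21 in v2 at D19. Assembloids had 0.4 and 0.0539 at D3, 0.618 and 0.501 at D7, 0.909 and 1.48 at D13, and 0.979, 0.322, 1.85 and 1.68 at D19. The serum explants were apart from all other libraries, with P45 kidneys next. Col8a2 had 53.02 and 44.04 at E12.5, 30.7 and 26.7 at E15.5, 19.8 and 27.9 at P0, 14.1 and 6.55 at P9, and 1.26 and 0.977 at P45 in kidneys, lowest at P45, and 19.9 and 22.03 in serum at D7 and 48.8 and 46.98 in v1 at D7 in explants.

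Of the FACIT collagens, Col12a1 and Col14a1 are known from the surface of type I fibrils. Col12a1 had 429 and 405 in serum at D7 and 139.99 and 148 in v1 at D7 in explants, against 14.6 to 157 in every other library. Col14a1 was lowest in v0 explants (15.7 and 21.3 in v0 at D17) and highest in D7 assembloids (189 and 195 at D7). Col16a1 had 48.6 and 46.05 at E12.5, 54.7 and 53.4 at E15.5, 58.1 and 71.7 at P0, 42.2 and 25.7 at P9, and 17.2 and 8.31 at P45 in kidneys and 32.7 and 33.3 at D3, 132 and 129 at D7, 80.2 and 93.7 at D13, and 135, 128, 114 and 121 at D19 in assembloids. Col20a1 had 9.72 and 9.73 in v1 at D19 and 11.2 and 9.27 in v2 at D19 in explants, where its highest values lay, and 9.38 in 1 P45 kidney. Col22a1, known from the junction of muscle and tendon, was at most 4.46, a value of an E12.5 kidney.

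Of the transmembrane collagens, Col25a1 (ENSMUSG00000058897.19, chr3:129925150-130393526, plus strand) is in mouse needed for motor nerves to enter muscle. It had 85.9 and 77.2 at E12.5, 19.2 and 20.4 at E15.5, 9.05 and 6.12 at P0, 3.74 and 4.56 at P9, and 0.42 and 1.05 at P45 in kidneys. Explants had 10.2 and 12.6 in serum at D7, 64.1 and 73.05 in v0 at D17, 49.3 and 46.8 in v1 at D3, 97.6 and 72.6 in v1 at D7, 38.2 and 31.4 in v1 at D13, 21.7 and 30.5 in v1 at D19, and 18.3 and 18.7 in v2 at D19. Assembloids had 17.1 and 15.04 at D3, 116 and 94.5 at D7, 26.1 and 36.4 at D13, and 40.95, 25.3, 22.7 and 25.2 at D19. The 5 highest values were those of the E12.5 kidneys, both D7 assembloids and a D7 v1 explant, and the serum explants of the same day were low. Col23a1 had 71.5 and 64.9 at E12.5, 44.2 and 45.4 at E15.5, 29.8 and 25.8 at P0, 18.5 and 10.1 at P9, and 3.57 and 2.65 at P45 in kidneys and 46.4 to 118 in assembloids from D7 on. Col13a1, found at the neuromuscular junction, was highest in D13 assembloids (18.9 and 23.3 at D13). Col17a1, a hemidesmosome protein of surface epithelia, was highest in v0 explants (7.34 and 9.75 in v0 at D17) and at most 5.28 elsewhere.

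Col27a1 (ENSMUSG00000045672.16, chr4:63132241-63253228, plus strand), a fibrillar chain with an interrupted helix known from cartilage, was lowest in E12.5 and highest in P45 kidneys, the ends at which Col1a1 and Col1a2 were highest and lowest, with 41.99 and 39.8 at E12.5, 50.2 and 54.1 at E15.5, 51.4 and 48.6 at P0, 93.6 and 97.2 at P9, and 274 and 232 at P45. In cultures it lay between 26.0 and 77.8. Col24a1, its relative known from bone, was at most 20.7 (D7 v1 explants). Col7a1, the anchoring fibril collagen of skin, was highest in D19 assembloids, with 22.1, 21.98, 15.7 and 16.1 at D19. Col26a1 had 219 and 223 at E12.5, 104 and 98.5 at E15.5, 61.7 and 82.97 at P0, 113 and 117 at P9, and 52.7 and 47.2 at P45 in kidneys and 191 and 203 at D3, 164 and 174 at D7, 229 and 245 at D13, and 109.7, 102, 122 and 130.3 at D19 in assembloids. Col28a1 stayed between 0.035 and 2.63.

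**Figure D4:**
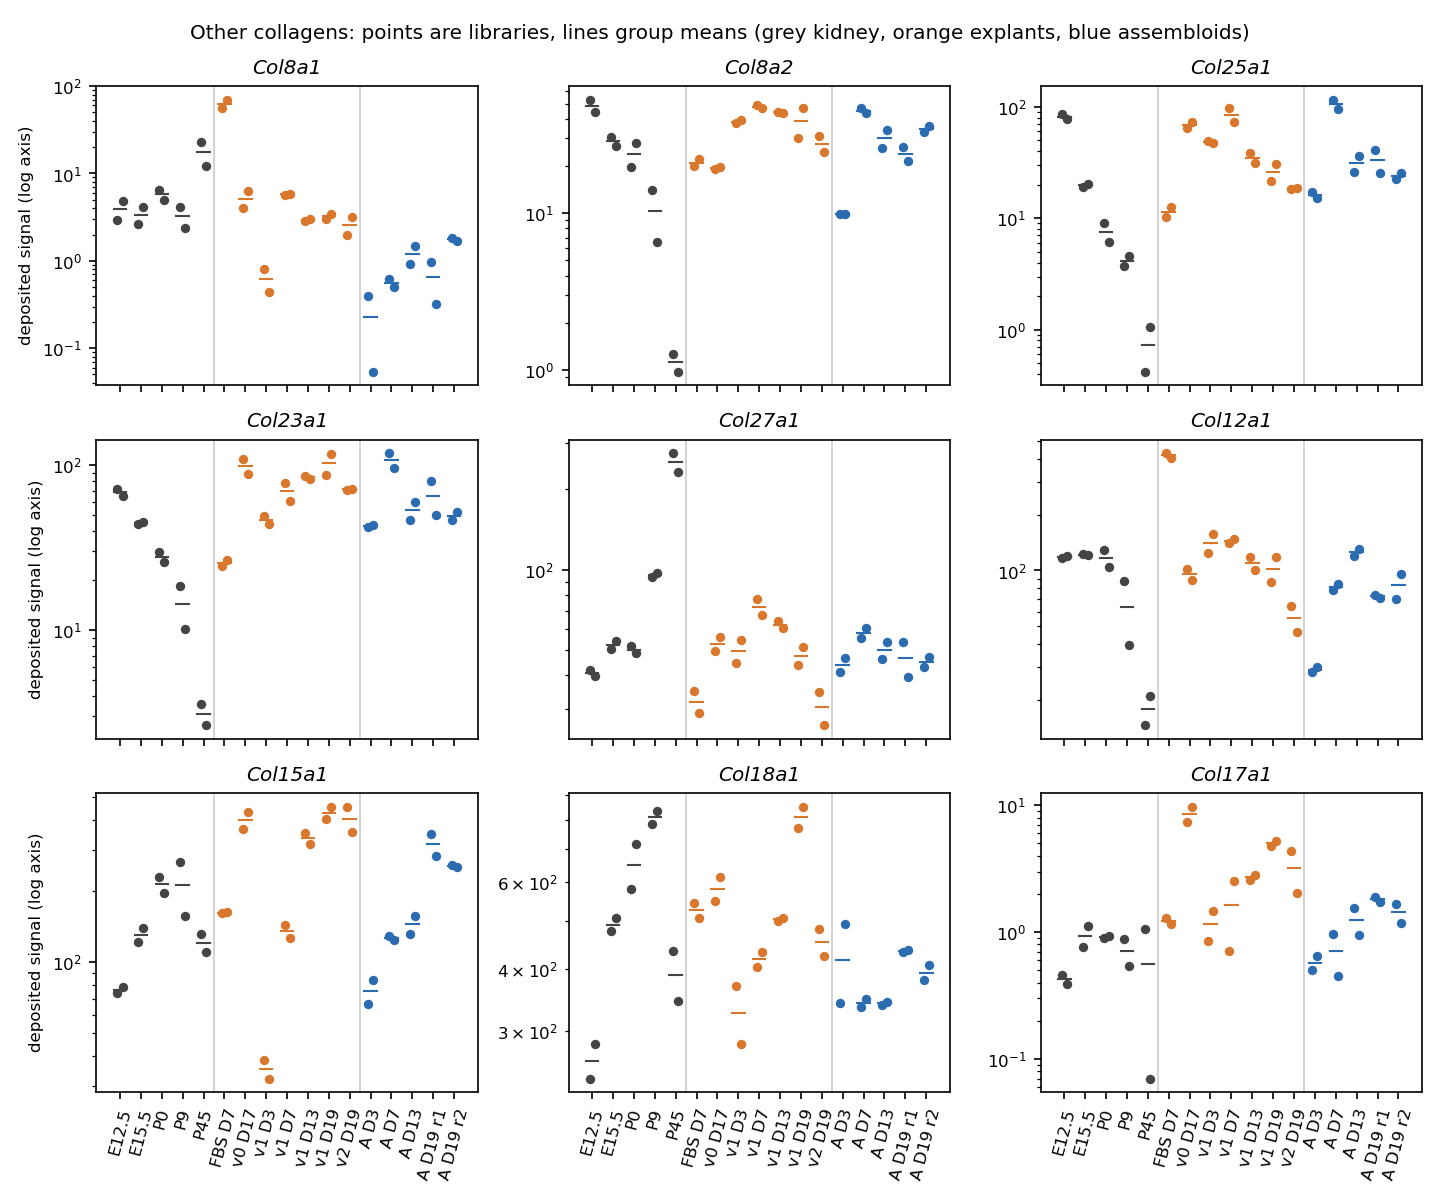
Deposited signal (log axis) of other collagens with called differences in each library by group; points are libraries, horizontal lines group means, colours as for the fibrillar collagens. Col8a1 stands at 55.8 and 70.0 in the serum explants, and Col27a1 at 274 and 232 in P45 kidneys.

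Kidney maturation was compared in steps. From E12.5 to P0, 2 of the 30 tested collagens rose and 12 fell, where 12.7% and 6.81% of all genes tested rose and fell (19.5% in either direction). The multiplexins were the pair that rose, Col15a1 (1.47 ± 0.18) and Col18a1 (1.30 ± 0.14). The largest fall was that of Col25a1 (-3.29 ± 0.22, adjusted p = 9.47e-13), from 81.5 ± 6.11 (SD, n = 2) to 7.59 ± 2.07 (SD, n = 2) or 10.7-fold. It was followed by Col9a1 (-2.27 ± 0.23), Col22a1 (-2.00 ± 0.21) and Col9a2 (-1.96 ± 0.23) and then by Col26a1 (-1.61 ± 0.11) and Col11a1 (-1.61 ± 0.23); Col9a1, Col9a2 and Col11a1 are cartilage chains. Of the 6 major fibrillar genes, Col5a1 (-1.21 ± 0.16) and Col5a2 (-1.02 ± 0.14) fell and the other 4 did not pass the test, with Col1a1 at -0.80 ± 0.22 and Col3a1 at -0.52 ± 0.18. The 10 stroma markers (Pdgfra, Pdgfrb, Lum, Postn, Tcf21 and others) summed to 1551 to 1598 at E12.5 and 763 to 788 at P0. All 8 neuron and chromaffin markers fell, from a sum of 216 to 274 to one of 4.83 to 5.32, and 4 of 6 tested skeletal muscle markers fell, from 103 to 165 to 26.2 to 31.7; the part of these tissues in the collagen differences was not tested. Calls that ended when 1 library was left out were those of Col5a2 (-0.99 without E12.5 replicate 2, -0.90 without P0 replicate 2) and Col8a2 (-0.88 without E12.5 replicate 1, -0.77 without P0 replicate 1). With quantile normalization Col5a2 (-0.91) was no longer called, and with 5 times the pseudocount Col5a2, Col24a1, Col8a2 and Col22a1 were not; all genes split 2036 up and 1741 down with quantile normalization against 2437 and 1311.

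From P0 to P9, 0 collagens rose and 6 fell, with a background of 5.79% rising, 5.94% falling and 11.7% in either direction. At an unadjusted p under 0.05, 3 collagens had a positive change and 15 a negative one. The share of all genes at that p was not counted, so these 2 counts have no background. Col2a1 fell from 47.5 ± 3.86 (SD, n = 2) to 2.17 ± 0.784 (SD, n = 2), 22-fold (-3.98 ± 0.20, adjusted p = 2.67e-14). Col9a1 (-2.48 ± 0.23), Col13a1 (-1.74 ± 0.24), Col11a2 (-1.52 ± 0.31), Col9a3 (-1.21 ± 0.28) and Col8a2 (-1.20 ± 0.22) fell too, so that 4 of the 6 tested cartilage chains fell. No major fibrillar gene passed the test, and the P9 replicates were apart: Col1a1 had 794 and 399, Col12a1 87.6 and 39.5, and the stroma markers summed to 653 in replicate 1 and 410 in replicate 2. Without P9 replicate 1, 12 collagens were called. Calls that ended when 1 library was left out were those of Col9a3 (-0.76 without P0 replicate 2, -0.64 without P9 replicate 2) and Col8a2 (-0.96 without P0 replicate 2, -0.70 without P9 replicate 2); Col9a3 (-1.21, adjusted p = 0.0973) was not called when only these groups were fitted, and Col11a2, Col9a3, Col8a2 and Col13a1 with 5 times the pseudocount. With columns rescaled to equal totals 11 collagens fell, and all genes split 744 up and 1719 down against 1115 and 1144.

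From P9 to P45, 3 collagens rose and 15 fell, against 7.77%, 6.84% and 14.6% of all genes; the median change of the 30 was -0.995 and that of all genes -0.0076. Col8a1 (2.11 ± 0.30), Col27a1 (1.39 ± 0.14) and Col20a1 (1.04 ± 0.20) rose. Col27a1 went from 95.4 ± 2.57 (SD, n = 2) to 253 ± 29.2 (SD, n = 2) (adjusted p = 6.3e-09). Col1a1 fell 3.65-fold (-1.78 ± 0.22, adjusted p = 1.3e-06), among the 6 largest falls with Col8a2 (-2.36 ± 0.22), Col9a2 (-1.98 ± 0.23), Col23a1 (-1.86 ± 0.21), Col12a1 (-1.69 ± 0.25) and Col25a1 (-1.61 ± 0.22). Col1a2 and Col5a2 fell as well, while Col3a1 (-0.99 ± 0.18), Col5a1 (-0.83 ± 0.16) and Col5a3 (-0.31 ± 0.23) had negative changes under the threshold of 1 in size. At an unadjusted p under 0.05, 3 collagens had a positive change and 20 a negative one, with the share of all genes not counted. Col9a3 was at the lowest value of its column in both P45 kidneys, where the P9 kidneys had 2.11 and 0.43. Stroma markers summed to 315 to 364 at P45 and 4 of the 10 fell. Of 22 genes that process collagen inside the cell, 3 rose and 4 fell. Those furthest apart were Fkbp10, a prolyl isomerase whose loss causes brittle bone (-1.83 ± 0.13), the lysyl hydroxylase Plod1 (-1.79 ± 0.49; -3.12 without P45 replicate 1 and -0.47 without P45 replicate 2), and the prolyl 4-hydroxylase subunits P4ha2, which rose (1.48 ± 0.17), and P4ha3, which fell (-1.37 ± 0.23). Of 12 genes acting outside the cell, Loxl1, a crosslinking enzyme (-1.31 ± 0.14), fell and the procollagen proteinase Adamts14 rose (1.11 ± 0.28; 0.49 without P9 replicate 2, 0.74 without P45 replicate 1 and 1.73 without P9 replicate 1). Of 7 breakdown genes, the proteinases Fap (-1.48 ± 0.20), Mmp14 (-1.45 ± 0.12) and Mmp2 (-1.08 ± 0.14; -0.83 without P9 replicate 1) fell and none rose. Calls of members that ended when 1 library was left out were those of Col18a1 (-0.89 without P45 replicate 2), Col20a1 (0.98 without P9 replicate 1, 0.87 without P45 replicate 1), Col2a1 (-0.76 without P9 replicate 1, -0.95 without P45 replicate 2), Col7a1 (-0.74 without P9 replicate 1, -0.56 without P45 replicate 2), Col5a2 (-0.99 without P9 replicate 1), Col9a3 (-0.43 without P9 replicate 1), Col1a2 (-0.84 without P9 replicate 1), Col16a1 (-0.91 without P45 replicate 2) and Col13a1 (-0.97 without P9 replicate 2, -0.77 without P45 replicate 2). Equal totals moved the median of all genes to -0.33 and their split to 743 up and 2472 down against 1496 and 1317. They gave 1 collagen up and 17 down, and Col20a1 (0.65), Col9a3 (-0.96) and Col27a1 (0.97) were not called there. With quantile normalization Col2a1 (-0.94), Col9a3 (-0.83) and Col13a1 (-0.90) were not called. When limma was fitted to only these groups, 4 were not called. These were Col2a1 (-1.02, adjusted p = 0.0814), Col7a1 (-1.05, adjusted p = 0.114), Col9a3 (-1.002, adjusted p = 0.143) and Col13a1 (-1.05, adjusted p = 0.0709). Calls also ended with 5 times the pseudocount for Col20a1, Col2a1, Col7a1, Col9a3, Col9a2, Col13a1 and Col25a1.

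Culture of the E12.5 kidney for 3 days in v1 was compared with the E12.5 kidney itself. No collagen rose and 4 fell, with 5.27%, 3.21% and 8.48% of all genes in the background. At an unadjusted p under 0.05, 4 collagens had a positive change and 15 a negative one, with the share of all genes not counted. Col8a1 (-1.60 ± 0.30), Col9a1 (-1.46 ± 0.23), Col15a1 (-1.10 ± 0.18) and Col9a3 (-1.01 ± 0.28) fell, while Col1a1 (-0.63 ± 0.22) and Col2a1 (-0.79 ± 0.20) did not pass the fold threshold. Neuron and chromaffin markers fell here also, 6 of 8, from 216 to 274 to 26.5 to 42.2, and 3 of 6 skeletal muscle markers fell; their part was not tested. Calls ended without 1 library for Col9a3 (-0.99 without E12.5 replicate 1, -0.92 without v1 explant D3 replicate 1) and Col15a1 (-0.97 without v1 explant D3 replicate 2). With equal totals Col9a3 (-0.98) was not called, nor with 5 times the pseudocount Col9a3 and Col8a1.

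Between D3 and D19 in v1, 7 collagens rose and 5 fell, against 10.5%, 5.96% and 16.4% of all genes. Col15a1 rose 12.2-fold, from 35.3 ± 4.45 (SD, n = 2) to 430.1 ± 33.3 (SD, n = 2) (3.57 ± 0.18, adjusted p = 7.19e-14). The other multiplexin rose with it, Col18a1 (1.32 ± 0.14), as did Col5a3 (2.13 ± 0.23), Col20a1 (1.79 ± 0.20), Col17a1 (1.51 ± 0.31) and Col8a1 (1.42 ± 0.30). The fallers were 4 cartilage chains, Col2a1 (-2.95 ± 0.20), Col9a2 (-1.57 ± 0.23), Col11a1 (-1.17 ± 0.23) and Col9a1 (-1.06 ± 0.23), and Col24a1 (-1.88 ± 0.23). Col5a3 was the only major fibrillar gene called; Col1a1 had 0.71 ± 0.22 and Col3a1 0.69 ± 0.18. Beside this, 6 of 8 endothelium markers fell and all 8 macrophage markers rose, from a sum of 47.2 to 99.9 to one of 314 to 420.4. Calls ended without 1 library for Col11a1 (-0.97 without v1 explant D19 replicate 1) and Col23a1 (0.91 without v1 explant D19 replicate 2), and with 5 times the pseudocount for Col17a1, Col9a1, Col11a1 and Col8a1.

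Serum and v1 were compared at D7. In v1, 8 collagens were higher and 2 lower, where 5.72% and 5.62% of all genes were (11.3% in either direction). Col8a1 was 10.9-fold lower in v1, 5.79 ± 0.101 (SD, n = 2) against 62.9 ± 10.04 (SD, n = 2) in serum (-3.23 ± 0.30, adjusted p = 1.44e-09), and Col12a1 2.9-fold lower (-1.53 ± 0.25). Col25a1 was 7.48-fold higher in v1 (2.79 ± 0.22, adjusted p = 1.21e-10), and Col24a1 (1.498 ± 0.23), Col26a1 (1.44 ± 0.11), Col23a1 (1.39 ± 0.21), Col27a1 (1.16 ± 0.14) and Col8a2 (1.16 ± 0.22) were higher too. None of the 6 major fibrillar genes passed the test: Col1a1 had -0.74 ± 0.22, with 3573 and 3025 in serum and 1863 and 2092 in v1. Of 22 genes that process collagen inside the cell 2 were higher and 3 lower in v1, and of 12 acting outside it 2 and 3. Lox, a lysyl oxidase that crosslinks fibrillar collagen, was lower in v1 (-2.36 ± 0.25), with 306 and 350.3 in serum at D7 and 68.95 and 57.8 in v1 at D7. The prolyl hydroxylase subunit P4ha3 was lower (-1.81 ± 0.23), the prolyl 3-hydroxylase family member P3h3 (1.51 ± 0.13) and the lysyl oxidase Loxl3 (1.27 ± 0.15) were higher, and the surface proteinase Fap was higher (1.99 ± 0.20). All 8 macrophage markers were lower in v1, with sums of 123 to 130.5 against 1838 to 1859, and smooth muscle and pericyte markers summed to 431 to 536 against 1094 to 1189; their part in the collagen differences was not tested. Calls ended without 1 library for Col16a1 (0.97 without v1 explant D7 replicate 1) and Col22a1 (0.90 without serum explant D7 replicate 1, 0.88 without v1 explant D7 replicate 1), and with 5 times the pseudocount for Col22a1. Equal totals split all genes 1387 up and 896 down against 1101 and 1082.

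Late v1 explants (D19) were set against v0 explants, collected at D17, so the days differ as well. In v1, 5 collagens were higher and 1 lower, against 2.63%, 2.82% and 5.45% of all genes. The cartilage chains Col9a1 (2.20 ± 0.23), Col2a1 (2.03 ± 0.20) and Col11a2 (1.74 ± 0.31) were higher in v1, with Col9a1 at 4.34 and 4.55 against 0.179 and 0.243, the latter near the lowest values of their columns. Col14a1 (1.14 ± 0.23) and Col13a1 (1.09 ± 0.24) were higher, and Col25a1 (-1.38 ± 0.22) lower. Cartilage cell markers summed to 61.5 to 67.1 in v0 and 15.8 to 19.3 in v1. Of these, 1 of 3 tested was lower in v1, Hapln1 (-2.11 ± 0.29), the other way from Col9a1, Col2a1 and Col11a2. The other tested cartilage chains were not called. Col9a2 had 6.99 and 5.74 in v0 and 3.29 and 3.72 in v1. Col11a1 had 18.6 and 18.6 in v0 and 11.8 and 15.8 in v1. Col9a3 had 1.73 and 1.17 in v0 and 2.96 and 2.38 in v1. Smooth muscle and pericyte markers summed to 1112 to 1854 in v0 and 355 to 528 in v1, with 4 of 7 lower in v1, and 3 of 8 endothelium markers were lower; their part was not tested. By limma, 0 of 34 genes for collagen processing inside and outside the cell were called. Calls ended without 1 library for Col14a1 (0.93 without v0 explant D17 replicate 1) and Col13a1 (0.88 without v0 explant D17 replicate 2), and with 5 times the pseudocount for Col14a1, Col9a1 and Col13a1.

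At D19 the medium v2 was compared with v1 in explants. No collagen was higher and 1 was lower, Col2a1 (-1.26 ± 0.20, adjusted p = 0.00011), with 2.87 and 3.33 in v2 and 7.88 and 9.78 in v1; 1.13%, 1.71% and 2.84% of all genes were called. At an unadjusted p under 0.05, 6 collagens had a positive change and 10 a negative one, with the share of all genes not counted. Lox was higher (1.32 ± 0.25) and Colgalt2, which adds sugar to collagen, lower in v2 (-1.33 ± 0.24). The shallow D19 v2 replicate 2 is among these libraries; without 1 library 1 to 3 collagens were called, and with 5 times the pseudocount 0.

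Assembloids gained signal of the type I, III and V chains in culture. Between D3 and D19, 13 collagens rose and 4 fell, against 10.9%, 6.45% and 17.4% of all genes; the median change of the 30 was 0.75 and that of all genes 0.0056. All 6 major fibrillar genes rose: Col5a3 (3.06 ± 0.20), Col1a2 (2.95 ± 0.13), Col1a1 (2.67 ± 0.19), Col3a1 (2.08 ± 0.16), Col5a1 (2.06 ± 0.14) and Col5a2 (1.78 ± 0.12). Col1a2 went from 214 ± 3.62 (SD, n = 2) to 1658 ± 107 (SD, n = 4), 7.74-fold (adjusted p = 5.38e-16). Col15a1 (1.91 ± 0.15) rose too, and 4 of the 5 FACIT genes outside cartilage rose, led by Col16a1 (1.88 ± 0.18) and Col20a1 (1.53 ± 0.17). The members that fell were Col2a1 (-4.95 ± 0.18), Col9a1 (-3.50 ± 0.20), Col11a1 (-1.47 ± 0.20) and Col24a1 (-1.08 ± 0.20). Col2a1 fell from 103 ± 4.48 (SD, n = 2) to 2.49 ± 0.829 (SD, n = 4), 41.3-fold (adjusted p = 2.05e-18). D3 and D19 values did not overlap for any of these. They were picked by the test on the same libraries, so this is no further support.

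The genes that act on collagen outside the cell moved in the same comparison, where 10.9% of all genes rose and 6.45% fell. Of 12 tested, 6 rose and 0 fell, led by Lox (4.59 ± 0.22), Adamts2, the proteinase that removes the N-terminal end of procollagen (3.45 ± 0.13), Loxl1 (2.37 ± 0.12) and Pcolce, an enhancer of the C-terminal proteinase (1.78 ± 0.10). Lox had 11.7 and 8.299 at D3, 98.1 and 83.7 at D7, 153 and 223 at D13, and 293, 254, 236 and 262 at D19. Of 22 genes acting inside the cell 4 rose and 1 fell: the prolyl 3-hydroxylase P3h2 (2.18 ± 0.22; 1.54 without D3 replicate 1 and 2.83 without D3 replicate 2), the lysyl hydroxylase Plod1 (1.87 ± 0.42), the prolyl 4-hydroxylase subunits P4ha1 (1.502 ± 0.11) and, falling, P4ha3 (-1.25 ± 0.20) are the largest. Of 7 breakdown genes, Ctsk (1.84 ± 0.28), a cysteine proteinase, and Mmp14 (1.43 ± 0.10), a membrane-bound collagenase, rose. Of 7 receptors, the integrin subunits Itga1 (3.24 ± 0.16) rose and Itga2 (-1.20 ± 0.40; adjusted p = 0.125 without D3 replicate 2 and 0.0679 with 0.1 times the pseudocount) fell. Stroma markers summed to 593 to 624 at D3 and 1852 to 2321 at D19, with 6 of 10 rising and 1 falling, and 5 of 7 smooth muscle and pericyte markers rose and 1 fell; how much of the collagen change goes with them was not tested. Member calls ended without 1 library for Col14a1 (0.81 without assembloid D3 replicate 2) and Col24a1 (-0.89 without assembloid D3 replicate 2), and with 5 times the pseudocount for Col20a1, Col11a1 and Col24a1.

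The changes from D3 to D19 were compared by a test of their difference, assembloids minus v1 explants. Of all genes, 5.48% were called with a positive and 4.03% with a negative difference (9.5% in either direction). Among collagens the difference was positive for 13 and negative for 4. The former included 5 of the 6 major fibrillar genes, Col1a2 (2.18 ± 0.19), Col5a2 (2.09 ± 0.18), Col1a1 (1.97 ± 0.29), Col5a1 (1.83 ± 0.21) and Col3a1 (1.39 ± 0.24), and the latter Col9a1, Col2a1, Col15a1 and Col18a1. For Col5a3, which rose in both series, the difference was 0.93 ± 0.31 and did not pass the test. A positive difference is not always a larger change: Col9a2 fell in explants and was not called in assembloids. The assembloids were in v2 and the explants in v1, so source and medium cannot be told apart here. In D3 v1 explants Col1a1 was already at 1179 and 1113, against 412 and 418 in D3 assembloids, and stroma markers summed to 1516 to 1635 against 593 to 624.

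**Figure D5:**
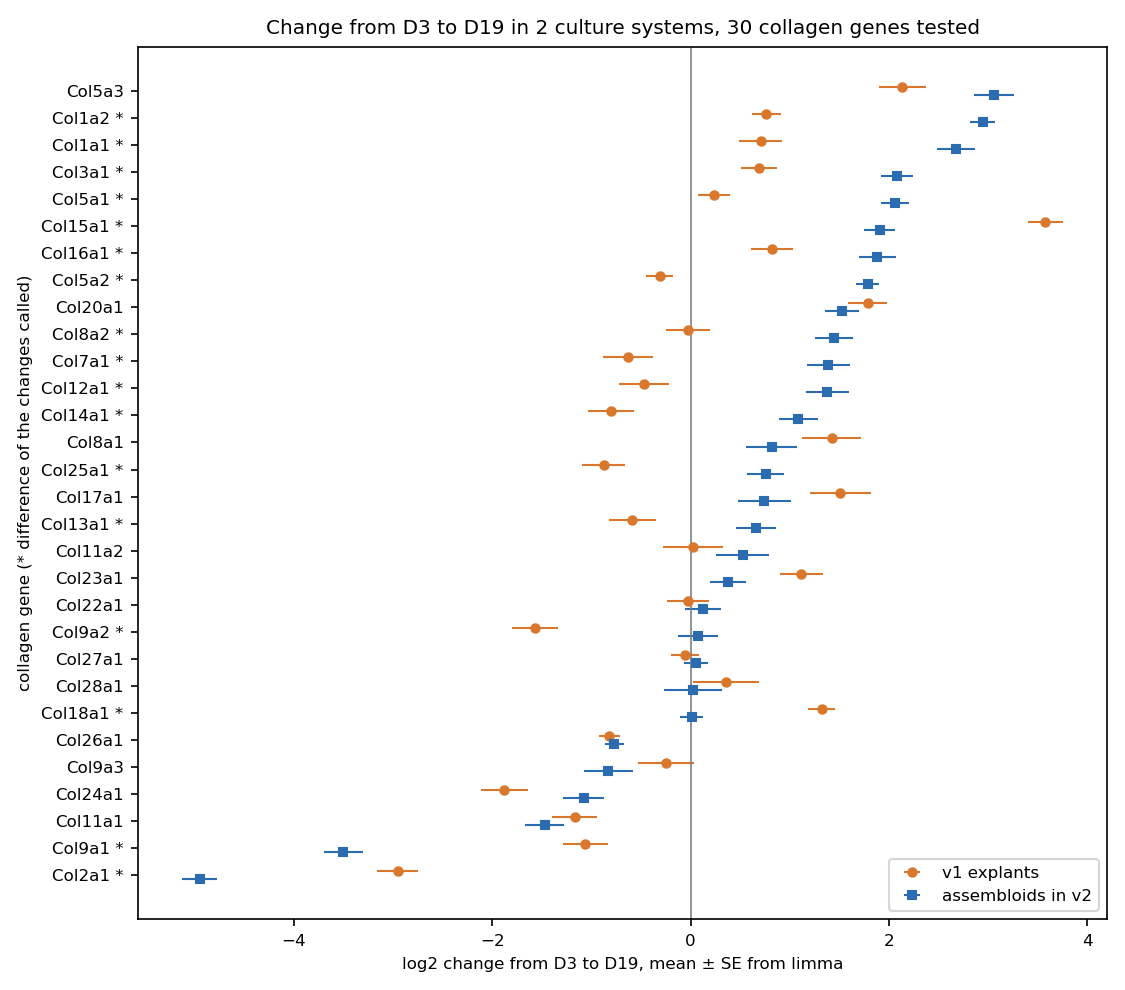
Log2 change from D3 to D19 of the 30 tested collagens in v1 explants (orange circles) and assembloids in v2 (blue squares). Bars are standard errors from limma, and a star marks genes whose difference of the changes was called. For Col1a1 that difference is 1.97, and the change of Col2a1 is negative in both.

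At D19 the assembloids were compared with explants of the same day and medium. No collagen was higher and 2 were lower in assembloids, Col9a1 (-1.40 ± 0.20) and Col11a1 (-1.06 ± 0.20), against 2.15%, 3.29% and 5.44% of all genes. At an unadjusted p under 0.05, 9 collagens had a positive change and 6 a negative one, with the share of all genes not counted. Col9a1 had 0.173, 0.43, 0.224 and 0.393 in assembloids and 2.03 and 2.73 in explants. The major fibrillar genes were not called, with Col1a1 at 0.36 ± 0.19 and Col3a1 at 0.13 ± 0.16. The explant replicates were apart (Col1a1 2438 and 1758). Macrophage markers summed to 26.7 to 29.6 in assembloids and 354 to 467 in explants, and stroma markers to 1852 to 2321 and 2358 to 2640.3. The Col11a1 call ended without 1 library (-0.84 without assembloid D19 r1 replicate 2, -0.99 without assembloid D19 r2 replicate 1), and neither call held with 5 times the pseudocount.

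Both D19 cultures in v2 were set against the P0 kidney, which they share as control. In assembloids 7 collagens were higher and 4 lower (5.68%, 6.76% and 12.4% of all genes), and in v2 explants 8 were higher and 3 lower (7.16%, 9.03% and 16.2%). Col5a3 was 2.36 ± 0.20 in assembloids and 2.00 ± 0.23 in explants, Col3a1 1.66 ± 0.16 and 1.53 ± 0.18, and Col5a1 1.46 ± 0.14 and 1.42 ± 0.16. Col25a1 was 1.77 ± 0.19 and 1.21 ± 0.22, and Col1a1 1.38 ± 0.19 and 1.03 ± 0.22. These were higher than at P0 in both. In assembloids Col9a3 (1.12 ± 0.25) was also among the 6 largest, and in explants Col20a1 (1.35 ± 0.20) and Col23a1 (1.33 ± 0.21). Lower were Col2a1, with -3.85 ± 0.18 in assembloids and -3.58 ± 0.20 in explants, and Col11a1, with -2.09 ± 0.20 and -1.03 ± 0.23. Col9a1 (-2.35 ± 0.20) and Col8a1 (-1.68 ± 0.26) were lower in assembloids and Col12a1 (-1.06 ± 0.25) in explants. The adjusted p of the Col2a1 differences were 6.5e-16 and 6.35e-14.

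Adamts2 had 2.30 ± 0.13 in assembloids and 2.29 ± 0.15 in explants against P0, and the cathepsin Ctsk 3.14 ± 0.28 and 1.86 ± 0.32; all 4 were called. Of the 22 intracellular processing genes 3 were lower in each, Colgalt2, P3h2 and P4ha3, where 6.76% and 9.03% of all genes were. P3h2 had -1.71 ± 0.22 in assembloids and -1.13 ± 0.25 in explants (-0.98 without P0 replicate 1 and -0.99 without D19 v2 explant replicate 2). Endothelium markers were lower in both, 8 of 8 in assembloids and 7 of 8 in explants. Stroma markers summed to 763 to 788 at P0, below the D19 sums of both cultures given above. The part of these cells in the collagen differences was not tested. In assembloids the calls of Col7a1 (0.80 without P0 replicate 1) and Col9a3 (0.67 without P0 replicate 1) ended without 1 library, and in explants those of Col1a1 (0.79 without v2 explant D19 replicate 1), Col17a1 (0.67 without v2 explant D19 replicate 1), Col11a1 (-0.89 without P0 replicate 1), Col12a1 (-0.92 without P0 replicate 1, -0.83 without v2 explant D19 replicate 2) and Col25a1 (0.96 without P0 replicate 2). With equal totals Col1a1 (0.99) was not called in explants, with quantile normalization Col1a1 (0.96) and Col11a1 (-0.89) were not, and with 5 times the pseudocount Col7a1, Col9a3 and Col8a1 in assembloids and Col20a1, Col17a1, Col11a1 and Col25a1 in explants.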

How the data were processed

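Bulk RNA-seq of 34 mouse samples in 17 groups was analysed from the 1 table deposited for the series. It holds 1 signal per gene and sample, normalized by the authors with TMM as the name of the deposited table says; no value is 0. STAR 2.7.8a and Partek, and the builds mm39 and mm10, are named in the submitters' processing notes; the sources used here do not give the counter, gene filter, offset or strand setting. The smallest step was the same for all genes of a column, so the signal is not scaled by length. RNA was prepared with Zymo kits and libraries by NovoGene, per the labels' protocols.

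Values were tested as log2(signal + 0.962), the pseudocount being 1 ppm of the median column total, for the 19264 genes at or above it in 2 samples. Differences are on that scale, which understates those of low genes. limma 3.58.1 in R 4.3.3 was fitted with 17 group means (17 residual degrees of freedom; robust, with a variance trend; the prior added a median of 9.93 degrees of freedom), adjusted over all genes by Benjamini-Hochberg, and tested on simulated data. D19 assembloids are the mean of r1 and r2. Members and lists were chosen with earlier results of these data known. In each comparison up to 6 called collagens per direction, and up to 4 called genes of a processing, breakdown or receptor list, are named; other named collagens were chosen after their values were seen, and pathway lists are described for some comparisons only. Values in all libraries are printed for the collagens the results turn on and in chosen groups for the rest. Values per kilobase use the longest protein-coding transcript of GENCODE M21 (an mm10 annotation), matched by gene ID. Alternatives were other pseudocounts, no filter, equal column totals, quantile normalization, no trend or robust setting, only the groups compared, a replicate block and leaving out each library, where the lone sample is assumed to vary like the other groups.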

Additional observations from a re-analysis of the deposited data

Results flagged for a closer look

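For 17 collagens the change from D3 to D19 differed between assembloids in v2 and explants in v1, by the limma test of the difference of the changes with Benjamini-Hochberg adjustment over all genes. Values are log2 differences, assembloids minus explants, and source and medium cannot be told apart. Among major fibrillar chains the difference was 1.97 for Col1a1, 2.18 for Col1a2, 1.39 for Col3a1, 1.83 for Col5a1 and 2.09 for Col5a2. Among cartilage chains it was -1.99 for Col2a1, -2.44 for Col9a1 and 1.64 for Col9a2. The FACIT genes Col12a1, Col14a1 and Col16a1 had 1.85, 1.89 and 1.07. The multiplexins had -1.67 for Col15a1 and -1.31 for Col18a1. Col7a1 had 2.02, Col8a2 1.47, Col13a1 1.25 and Col25a1 1.63. The Col16a1 call ended without v1 explant D19 replicate 1 (0.95) and with 5 times the pseudocount (0.99), and that of Col13a1 with 0.1 times the pseudocount (adjusted p = 0.0621) and with 5 times it (0.96).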

How the results depend on the processing

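Of 129 collagen calls over 13 tests none reversed under any alternative. Calls were lost for 40 with 5 times the pseudocount, 6 with quantile normalization, 5 with equal totals, 5 with only the groups compared, 1 with 0.1 times the pseudocount and 0 without the filter, without trend and robust settings or with the replicate block. Leaving out 1 library ended 44 of 678 checks and moved no called value by more than 1.49 times. Counts of called collagens moved as follows. With 5 times the pseudocount they were 2 of 6 for P9 against P0, 11 of 18 for P45 against P9, 2 of 4 for D3 v1 explants against E12.5, 3 of 6 for D19 v1 against D17 v0, 0 of 1 for D19 v2 against v1 explants, 0 of 2 for D19 assembloids against v2 explants and 7 of 11 for v2 explants against P0. With equal totals P9 against P0 gave 11, and with 0.1 times the pseudocount D19 v2 against v1 explants gave 4. Leaving out 1 library gave 4 to 12 for P9 against P0 (12 without P9 replicate 1), 12 to 20 for P45 against P9, 1 to 3 for D19 v2 against v1 explants and 1 to 4 for D19 assembloids against v2 explants. Same-numbered samples deviated from their group means with correlations of -0.205 to 0.205. Whether the numbers pair the samples is not labelled, and low correlations over all genes cannot exclude it. The replicate block left all 129 calls in place, with 17 for D19 against D3 assembloids. Of 104 calls of processing, breakdown and receptor genes 47 were lost under at least 1 alternative and 27 without 1 library, and 0 reversed. Col28a1, with a median signal of 0.111, lies at or under 3 times the lowest value of its column in most libraries, often at the lowest value itself. D19 v2 explant replicate 2 limits the v2 comparisons.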
